A study of Mus musculus with 8 samples.

Results

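Messenger RNAs of the 2 classes of major histocompatibility complex (MHC) molecules were measured in heart mitochondria of control and Tefm knockout mice. The set held 10 genes of the 49584 features counted in each library. They were listed by name, with earlier results of these data known, and matched by symbol and gene identifier. The class II genes were Cd74, H2-Aa, H2-Ab1, H2-Eb1, H2-DMa and H2-DMb1, the class I genes were H2-K1, H2-D1 and B2m, and Ciita encodes the regulator of class II transcription. All 10 passed the filter on low counts, which left 17891 genes for testing.

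Class I molecules sit on nearly all nucleated cells and show CD8+ T cells peptides made in the cytosol. Each consists of a heavy chain, such as those encoded by H2-K1 and H2-D1, and the small invariant chain beta-2-microglobulin, encoded by B2m. Class II molecules are normally restricted to macrophages, dendritic cells, B cells and a few other cell types, and show CD4+ T cells peptides taken from endosomes. Class II alpha and beta chains are held by the invariant chain Cd74 until H2-DM exchanges its remnant for a peptide, and the transactivator Ciita switches these genes on together. In the heart, resident macrophages are a known source of class II molecules, while class I molecules are found on endothelial and other cells.

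TEFM is the elongation factor of the mitochondrial RNA polymerase. Control mice carried an exon of Tefm between loxP sites without cre (L/L in the titles, Tefm +/+ in the genotype field). Knockout mice carried the same alleles with cre driven by the muscle creatine kinase promoter (L/L, cre; Tefm -/-), a promoter of cardiac and skeletal muscle that leukocytes do not use. Total RNA of crude heart mitochondria from 4 mice of each genotype was sequenced, and no source used here gives the age, sex or strain of the mice.

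Crude mitochondria carry RNA of other compartments, and nuclear genes such as these 10 were read from that RNA. Libraries held 26268804 to 27403415 counts in controls and 21108165 to 25393933 in knockouts, of which nuclear genes gave 6825329 to 7596951 and 10331611 to 13204546. Genes of mitochondrial DNA (mtDNA) took 72.3% to 74.0% of counts in controls and 38.7% to 59.3% in knockouts, and knockout replicate 1, at 59.3%, stood nearest the controls. Levels are given as CPM, counts scaled to a library size that trimmed-mean (TMM) factors adjust, on which the median gene had a log2 fold change of -0.01. The Tefm count, 6.24 ± 0.639 CPM in controls against 6.86 ± 0.596 (SD, n = 4 each), covers all exons and does not check the deletion.

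Class II messages were 3.57- to 4.44-fold lower in knockout libraries for the invariant chain and the chains of the peptide-binding molecules, and class I messages were 1.40- to 1.54-fold lower. In the fit of all genes, 5 of 6 class II members fell, as did 3 of 3 class I members and Ciita, and no member rose. The share of all tested genes called lower was 23.9%, and 26.1% were called higher. The median log2 fold change was -1.93 over the 6 class II members and -0.51 over the 3 class I members. A drop of 2-fold or more among called genes was met by 6.72% of all tested genes and by Cd74, H2-Aa, H2-Ab1, H2-Eb1, H2-DMa and Ciita. Fewer cells of a type and less RNA per cell cannot be told apart in bulk libraries, nor can a change in how much of their RNA came down with the mitochondria. In the authors' deposited table the log2 fold changes ran from -2.06 to -1.77 for Cd74, H2-Aa, H2-Ab1 and H2-Eb1 and from -0.60 to -0.47 for the class I genes.

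**Figure D1:**
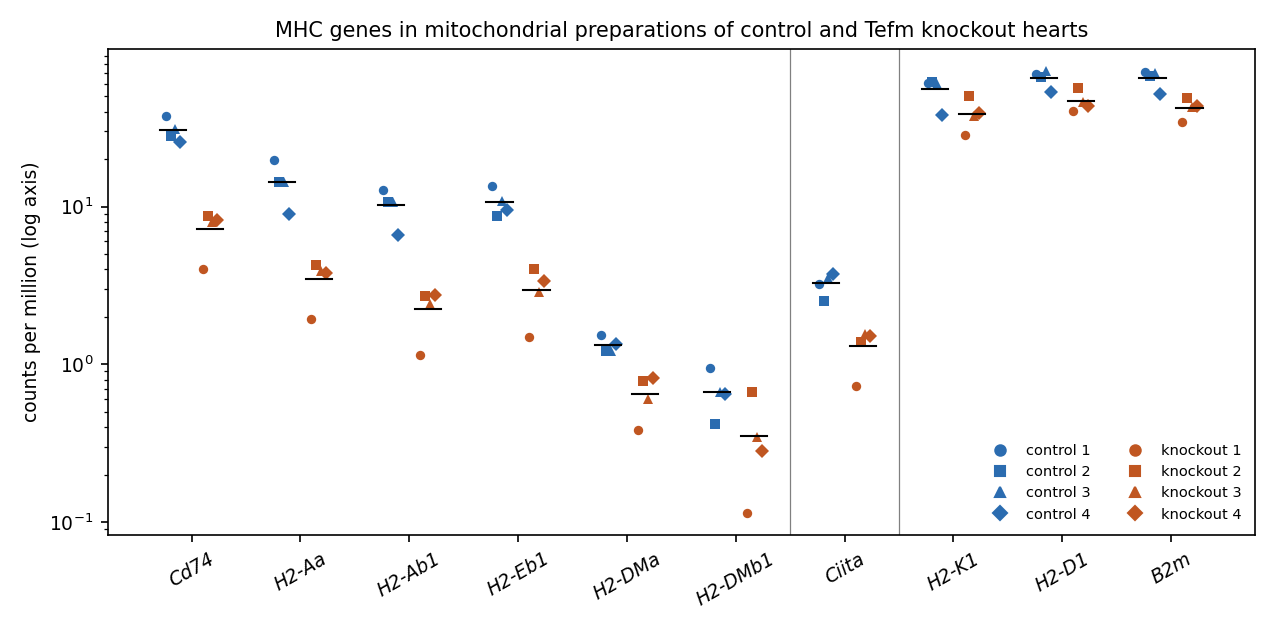
CPM of each of the 10 genes (x axis) in each of the 8 libraries, on a log axis (blue, control; orange, knockout; marker shape, replicate; black line, group mean; n = 4 per group). Cd74 lay at 25.5 to 37.7 CPM in controls and 4.01 to 8.71 in knockouts, while H2-K1 and H2-D1 libraries of the 2 groups overlapped.

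Cd74 (ENSMUSG00000024610.14) was the most abundant class II message. Its counts were 715, 536, 564 and 512 in controls 1 to 4 and 105, 301, 278 and 262 in knockouts 1 to 4. In CPM these were 37.7, 28.1, 31.2 and 25.5 against 4.01, 8.71, 8.02 and 8.26. All knockout libraries lay below all control libraries, a separation seen in 21.5% of tested genes, and knockout 1 was the lowest. The mean went from 30.6 ± 5.25 to 7.25 ± 2.18 CPM (SD, n = 4 each), a log2 fold change of -2.06 (standard error, SE, 0.19) with adjusted p = 6.93e-07 in edgeR's quasi-likelihood test with Benjamini-Hochberg adjustment, the test used throughout. The 95% interval of the drop was 3.17- to 5.52-fold. Of all tested genes, 1.38% had a log2 fold change this low or lower.

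H2-Aa (ENSMUSG00000036594.14) encodes the alpha chain of the A molecule and H2-Ab1 (ENSMUSG00000073421.5) its beta chain. H2-Aa stood at 19.7, 14.2, 14.3 and 8.97 CPM in controls and 1.95, 4.25, 3.92 and 3.81 CPM in knockouts. H2-Ab1 stood at 12.8, 10.7, 10.7 and 6.58 CPM in controls and 1.15, 2.72, 2.39 and 2.74 CPM in knockouts. Neither gene's groups overlapped, and for each gene control 1 was the highest and knockout 1 the lowest library. H2-Aa fell by 2.02 on the log2 scale (SE 0.23, adjusted p = 7.21e-06 in edgeR's test) and H2-Ab1 by 2.15 (SE 0.23, adjusted p = 3.81e-06).

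H2-Eb1 (ENSMUSG00000060586.10), the beta chain of the E molecule, stood at 13.5, 8.75, 10.9 and 9.57 CPM in controls and 1.49, 4.02, 2.89 and 3.37 CPM in knockouts. The groups did not overlap. The log2 fold change was -1.84 (SE 0.22, adjusted p = 9.20e-06 in edgeR's test), and the 95% interval, -2.30 to -1.37, overlapped those of Cd74, H2-Aa and H2-Ab1. No source used here gives the H2 haplotype of the mice, on which a functional E alpha chain depends.

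The proportions of these 4 genes to one another overlapped between the genotypes. Cd74 counts were 263% to 388% of H2-Ab1 counts in controls and 301% to 350% in knockouts. H2-Aa counts were 133% to 155% of H2-Ab1 counts in controls and 139% to 170% in knockouts. For H2-Eb1 the same ranges were 81.9% to 146% and 121% to 148%. These proportions were not tested.

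The H2-DM genes, whose product edits the peptide on class II molecules, were far scarcer. H2-DMa (ENSMUSG00000037649.9) had 29, 23, 22 and 27 counts in controls and 10, 27, 21 and 26 in knockouts, or 1.53, 1.21, 1.22 and 1.35 against 0.382, 0.781, 0.606 and 0.819 CPM. The CPM of the groups did not overlap, and H2-DMa fell by 1.01 on the log2 scale (SE 0.25, adjusted p = 0.00442 in edgeR's test). Its 95% interval, -1.55 to -0.46, lay above those of Cd74 and H2-Ab1. The interval overlapped those of H2-Aa (-2.515 to -1.517) and H2-Eb1 (-2.30 to -1.37). Exons of H2-DMa overlap Brd2 on the opposite strand, a gene with 9303 counts over the libraries, and since strand handling is not given, reads of the 2 genes may be mixed.

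H2-DMb1 (ENSMUSG00000079547.3) had 18, 8, 12 and 13 counts in controls and 3, 23, 12 and 9 in knockouts. In CPM its groups overlapped, at 0.419 to 0.949 in controls and 0.115 to 0.666 in knockouts. The log2 fold change of -0.87 did not pass the test (SE 0.42, 95% interval -1.76 to 0.03, adjusted p = 0.0993 in edgeR's test). Without knockout replicate 2 it was -1.36 with an adjusted p of 0.0148. At these counts the data cannot place H2-DMb1 with H2-DMa or apart from it, and 27.2% of its 50-base words also occur in other genes, chiefly its paralog H2-DMb2.

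Ciita (ENSMUSG00000022504.9), the transactivator without which class II genes stay silent, had 61, 48, 64 and 75 counts in controls and 19, 48, 54 and 48 in knockouts. In CPM this was 3.21, 2.52, 3.54 and 3.74 against 0.726, 1.39, 1.56 and 1.51. The groups did not overlap and knockout 1 was again the lowest library. The mean went from 3.25 ± 0.537 to 1.3 ± 0.387 CPM (SD, n = 4 each), a 2.47-fold drop (log2 fold change -1.30, SE 0.22, adjusted p = 0.000217 in edgeR's test). Cd74 counts were 683% to 1172% of Ciita counts in controls and 515% to 627% in knockouts, ranges that do not overlap. Ciita exons overlap Dexi on the opposite strand, a gene with 2015 counts over the libraries, so here too reads may be mixed.

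Upstream of class II genes lies a module of short boxes, of which the X box is bound by the RFX factors and the Y box by NF-Y, and Ciita acts through the proteins assembled there. The promoters of H2-Eb1 and H2-Aa are shown because these genes fell together with Cd74. They come from RefSeq's annotation of GRCm38.p6, read 5′ to 3′ on the strand of the gene, with capitals marking an X box (AGNAACNGA) or a Y box (GATTGG, or CCAATC on the other strand). H2-Eb1 is at chr17:34305770-34305842 on the plus strand, 97 to 25 bases before its start, and H2-Aa at chr17:34287862-34287921 on the minus strand, 98 to 39 bases before its start.
H2-Eb1: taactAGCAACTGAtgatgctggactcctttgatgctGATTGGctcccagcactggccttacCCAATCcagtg
H2-Aa: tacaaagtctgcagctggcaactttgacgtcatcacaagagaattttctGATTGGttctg
H2-Eb1 carries an X box and then a Y box in this order, and H2-Aa a Y box alone in these letters. Of 32851 promoters of 300 bases searched on both strands, 5.35% hold this X box and 16.1% this Y box. H2-DMb1 also holds both. Promoters of 7 of the 10 genes were searched for these boxes. Those of Cd74, H2-Ab1 and Ciita were not searched, so whether they hold an X box or a Y box was not tested.

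The class I genes started from a higher level and moved much less. B2m (ENSMUSG00000060802.8) stood at 71.1, 66.9, 70.6 and 51.4 CPM in controls and 34.4, 48.4, 42.6 and 43.5 CPM in knockouts. The groups did not overlap, though control 4 and knockout 2 lay near each other. B2m fell by 0.62 on the log2 scale (SE 0.12, 95% interval -0.87 to -0.37, adjusted p = 0.000496 in edgeR's test).

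H2-D1 (ENSMUSG00000073411.11) stood at 69.6, 66.5, 71.9 and 53.2 CPM in controls and 40.2, 56.3, 46.1 and 43.4 CPM in knockouts. Control 4 lay below knockout 2, so the groups overlapped. H2-D1 fell by 0.49 (SE 0.11, adjusted p = 0.00239 in edgeR's test).

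H2-K1 (ENSMUSG00000061232.15) stood at 60.6, 61.7, 60.2 and 38.3 CPM in controls and 28.4, 49.95, 37.2 and 39.1 CPM in knockouts. Control 4 stood apart from the other controls and below 2 of the knockouts. The log2 fold change was -0.51 (SE 0.16, adjusted p = 0.0189 in edgeR's test), and the call was lost without control 1, 2 or 3 (adjusted p = 0.0556, 0.0585 and 0.0551). Of the 50-base words of H2-K1 8.79%, and of those of H2-D1 14.3%, also occur in other genes, mostly of the same family, so their counts are less certain than that of B2m.

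The direction of the class I genes depended on how libraries were scaled. With library totals alone, which follow the loss of mtDNA counts, the median gene moved up by 0.99 on the log2 scale, to 0.97, and 78.6% of tested genes were called higher. B2m, H2-D1 and H2-K1 then had log2 fold changes of 0.40, 0.53 and 0.52 and were called higher. Cd74, H2-Aa, H2-Ab1 and H2-Eb1 stayed lower, at -1.03, -0.99, -1.12 and -0.81, among the 2.68% of genes called lower, while H2-DMa (-0.00) and Ciita (-0.28) lost their calls. The 3 class I genes lay above those 4 class II genes on either scale. A change of scale shifts all genes nearly alike, so this order is no separate support.

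**Figure D2:**
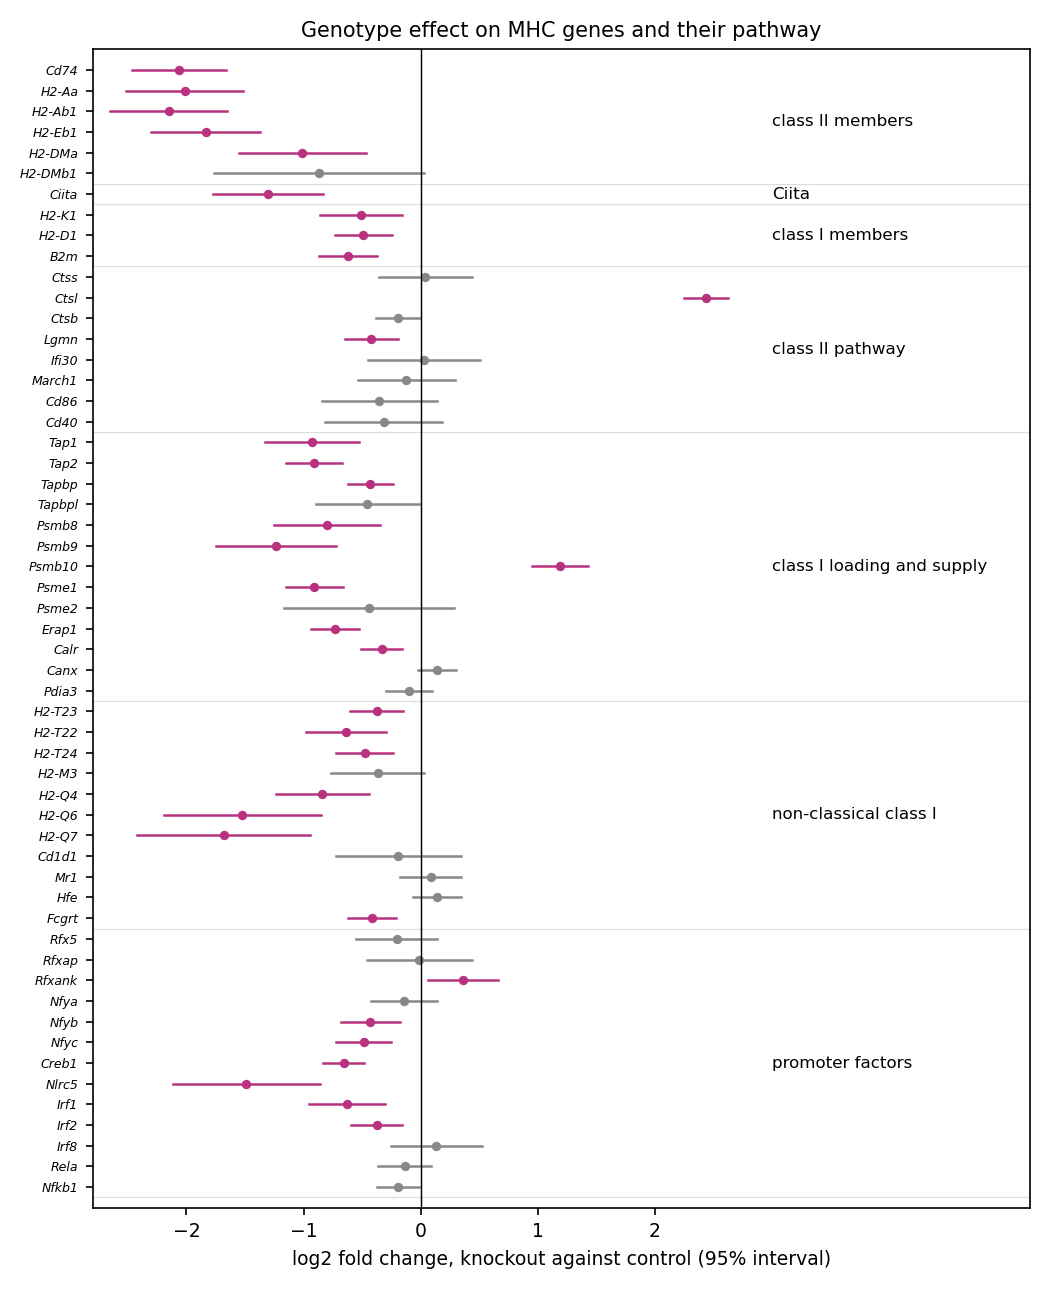
Log2 fold change, knockout against control, of the 10 genes and of the tested genes of the pathway lists, grouped by list, each with its 95% interval (pink, adjusted p under 0.05 in edgeR's test; grey, not; n = 4 per group). Cd74, H2-Aa, H2-Ab1 and H2-Eb1 lie between -2.15 and -1.84, and the class I genes between -0.62 and -0.49.

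A ratio of 2 genes within a library is not moved by scaling, and class II was therefore set against class I in this way. Cd74 counts were 53.0%, 42.0%, 44.2% and 49.6% of B2m counts in controls and 11.7%, 18%, 18.8% and 19.0% in knockouts. The groups did not overlap. The log2 ratio differed by -1.50 (SE 0.19), knockout minus control, a 2.84-fold drop (p = 0.0286, two-sided exact permutation test, the smallest that 70 relabelings of 4 against 4 libraries allow). H2-Ab1 counts were 21.0%, 17.3%, 17.7% and 17.2% of H2-K1 counts in controls and 4.03%, 5.45%, 6.43% and 7% in knockouts. This log2 ratio differed by -1.69 (SE 0.19), a 3.24-fold drop with the same exact permutation p of 0.0286. Adjusted over the 2 ratios, each p was 0.0286. The 6 class II genes together had 32.5% to 42.8% of the counts of the 3 class I genes in controls and 8.83% to 15.3% in knockouts.

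**Figure D3:**
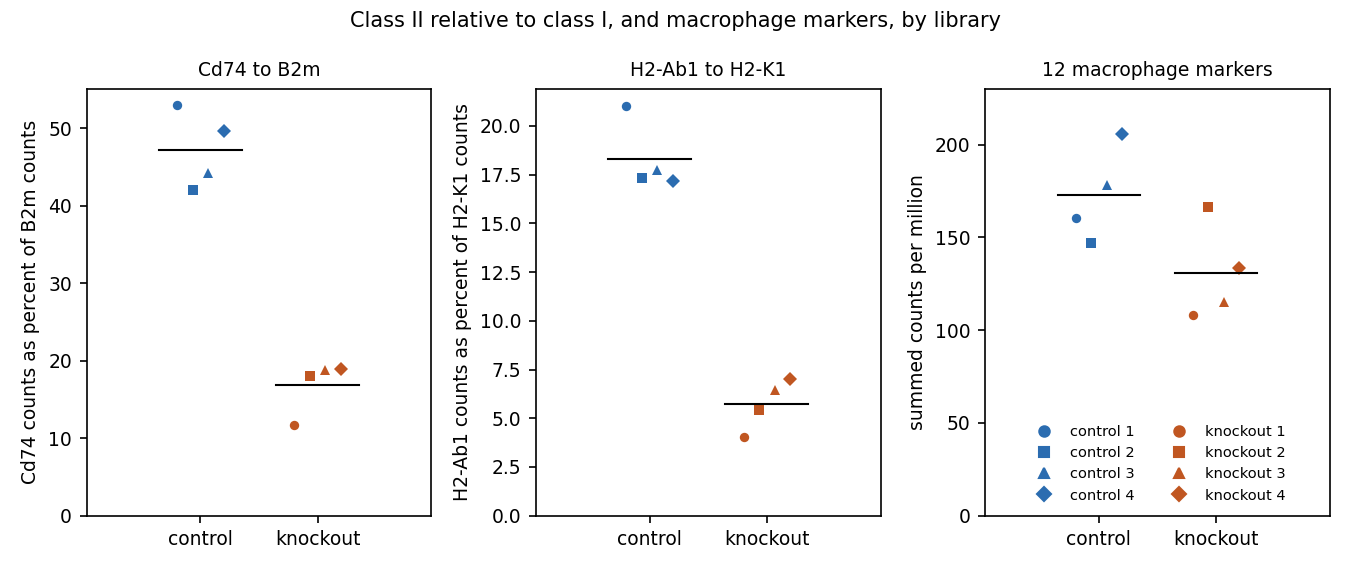
Per library, Cd74 counts as a percent of B2m counts, H2-Ab1 counts as a percent of H2-K1 counts, and the summed CPM of 12 macrophage markers, each axis starting at 0 (blue, control; orange, knockout; marker shape, replicate; black line, group mean; n = 4 per group). The ratios do not overlap between genotypes. The macrophage sums, 147 to 206 in controls and 108 to 167 in knockouts, overlap through knockout 2 alone. Their means are 173 and 131, and unlike the ratios they depend on scaling.

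Knockout 1 had the highest mtDNA share of the knockouts and the lowest level of all 10 genes. Without it the log2 fold changes were -1.88 for Cd74, -1.84 for H2-Aa, -1.96 for H2-Ab1, -1.64 for H2-Eb1, -0.85 for H2-DMa and -1.13 for Ciita. Those of the class I genes were -0.39 for H2-K1, -0.43 for H2-D1 and -0.54 for B2m. All 9 calls held without this library.

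Compared between genes per kilobase of exon, B2m was the highest of the set, at 75.6 CPM per kb in controls and 49.1 in knockouts. H2-D1 followed with 25.3 and 18, then H2-K1 with 18.8 and 13.2. Cd74, at 18.2, was level with H2-K1 within the spread of the controls (SD 3.13 and 3.85), and at 4.32 was well below it in knockouts. H2-Eb1 had 5.49 and 1.51, H2-Ab1 3.96 and 0.877, and H2-Aa 3.77 and 0.918 CPM per kb, with H2-Ab1 and H2-Aa not apart beyond their spread in either group. H2-DMb1, H2-DMa and Ciita were all at 0.341 to 0.399 in controls and 0.136 to 0.210 in knockouts. Lengths were those of all annotated exons joined: 1679 bases for Cd74, 2938 for H2-K1 and 3798 for H2-Aa. The longest coding transcripts of these genes hold 1410, 1619 and 1128 bases. The match of Cd74 with H2-K1 and the order of the chains therefore depend on the length used.

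Markers of the cells that usually carry class II molecules were read from the same libraries. Of 12 macrophage markers, 4 fell (C1qa, C1qb, C1qc and Lyz2), none rose, and 8 did not pass, with a median log2 fold change of -0.20. Over all tested genes 23.9% were called lower, so a count of 4 in 12 says little about the markers as a list. C1qa fell by 0.62, C1qb by 0.56, C1qc by 0.41 and Lyz2 by 0.63, against 2.06 for Cd74. The receptor Csf1r, which macrophages need to survive, was at 21.8 ± 3 CPM in controls against 18.6 ± 2.54 (SD, n = 4 each; log2 fold change -0.23, adjusted p = 0.110 in edgeR's test). It passed without control 2 or knockout 2 (adjusted p = 0.0285 and 0.0264), and the call of C1qc was lost without control 3 or 4 or knockout 3 or 4 (0.0622 to 0.106). Cd74 counts were 103% to 163% of Csf1r counts in controls and 24.03% to 47.9% in knockouts, without overlap. With library totals alone these 5 markers had log2 fold changes of 0.37 to 0.78.

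Of 7 dendritic cell markers 3 were tested, and only Itgax, which encodes CD11c, passed. It had 0.590 ± 0.0823 CPM in controls against 0.265 ± 0.112 (SD, n = 4 each; log2 fold change -1.10, adjusted p = 0.0148 in edgeR's test), and in DESeq2 its adjusted p was 0.0541. Among the 4 not tested, Xcr1 had 11 counts over the controls and 49 over the knockouts, and Flt3 had 7 and 18. Batf3 had 15 and 15, and Cd209a had 1 and 5. In mean CPM, Xcr1 stood at 0.142 and 0.375, and Flt3 at 0.0907 and 0.137. Batf3 stood at 0.195 and 0.117, and Cd209a at 0.0132 and 0.0368. The groups of each of these genes overlapped in CPM. The summed CPM of the 7 markers was 27.5 to 30.04 in controls and 19.4 to 27.8 in knockouts, most of it from Zbtb46, at 23.3 ± 0.953 CPM in controls and 19.1 ± 3.56 in the knockout libraries (SD, n = 4 each). The 4 B cell markers together had 7 to 45 counts per library, and Ms4a1 had 0 counts in knockout 1. The 6 T and NK cell markers had 13 to 62 counts per library, and Ncr1 had 1 count in all 8 libraries together. Of 6 endothelial markers 3 fell and none rose, with summed CPM of 354 to 373 in controls and 302 to 336 in knockouts. The shares called over all tested genes were 23.9% lower and 26.1% higher. The part that any of these cells had in the fall of the class II genes was not tested.

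Of 13 other genes of the class II pathway 8 were tested: 1 rose, 1 fell and 6 did not pass. Their median log2 fold change was -0.16, and over all tested genes 26.1% were called higher and 23.9% lower. Ctsl, encoding the endosomal protease cathepsin L, rose from 31.8 ± 2.40 to 172 ± 15.3 CPM (SD, n = 4 each; log2 fold change 2.43, adjusted p = 1.31e-10 in edgeR's test). Lgmn, encoding the protease legumain, fell by 0.42 (adjusted p = 0.00404), and stood at 0.59 with library totals. Ctss, encoding cathepsin S, which trims the invariant chain in antigen-presenting cells, stood at 3.22 ± 0.592 CPM in controls and 3.31 ± 0.742 in knockouts (adjusted p = 0.874).

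Of 13 genes that supply class I molecules with peptides or load them, 8 fell, 1 rose and 4 did not pass. The median was -0.46, and over all tested genes 23.9% were called lower and 26.1% higher. Tap1 and Tap2, which encode the peptide transporter of the endoplasmic reticulum, fell by 0.93 and 0.91 on the log2 scale (adjusted p = 0.000979 and 1.32e-05 in edgeR's test). Of the 3 inducible immunoproteasome subunits, Psmb9 fell by 1.24 and Psmb8 by 0.80, while Psmb10 rose from 9.76 ± 0.969 to 22.3 ± 3.16 CPM (SD, n = 4 each; log2 fold change 1.19, adjusted p = 1.05e-06). The proteasome activator subunit Psme1 fell by 0.91, the trimming peptidase Erap1 by 0.73, the loading factor tapasin (Tapbp) by 0.43 and the chaperone calreticulin (Calr) by 0.33. With library totals alone Tap1, Tap2, Psmb8, Psme1, Erap1, Tapbp and Calr turned positive, and Psmb9 lost its call. Control 4 had 4.44 CPM of Tap1 against 8.02 to 8.91 in the other controls, and 1.94 of Psmb8 against 3.49 to 4.30. For both genes the groups overlapped.

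Class I heavy chains outside the set included some that fell more than H2-K1 and H2-D1. Of 12 such genes 11 were tested, and 7 fell, none rose and 4 did not pass. Over all tested genes 23.9% were called lower and 26.1% higher. The median of the list was -0.42 and its highest value 0.14 (Hfe). H2-Q7 fell by 1.68 and H2-Q6 by 1.52 (adjusted p = 0.00104 and 0.00105 in edgeR's test), and H2-Q4 by 0.84. H2-T22 fell by 0.64, H2-T24 by 0.48, H2-T23, which encodes Qa-1, by 0.38, and the neonatal Fc receptor chain Fcgrt by 0.42. With library totals alone H2-Q7 and H2-Q6 stayed negative without a call, and H2-Q4, H2-T22, H2-T24, H2-T23 and Fcgrt turned positive. Genes of the Q region are near-identical to one another, so reads may be split among them. Control 4 was low here as for H2-K1. It had 2.69 CPM of H2-Q7 against 7.03 to 8.38 in the other controls, and 4.14 CPM of H2-Q6 against 10.1 to 12.9. For H2-Q4 it had 7.87 CPM against 13.6 to 16.1. The groups of H2-Q4, H2-Q6, H2-Q7 and H2-T22 overlapped.

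Class I promoters carry enhancer A, bound by NF-kappaB, and an interferon-stimulated response element (ISRE), bound by interferon regulatory factors, beside boxes like those of class II. H2-K1 and B2m are shown as the heavy and light chain, from the same RefSeq table, with capitals marking enhancer A (GGGATTCCC), the class I ISRE (TTTCACTTC), the general ISRE (TTTCNNTTT or its reverse complement) and the Y box. H2-K1 is at chr17:34000424-34000483 on the minus strand, 136 to 77 bases before the first of its 2 listed starts, and B2m at chr2:122147544-122147643 on the plus strand, 143 to 44 bases before it.
H2-K1: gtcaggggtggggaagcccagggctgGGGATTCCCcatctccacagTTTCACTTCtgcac
B2m: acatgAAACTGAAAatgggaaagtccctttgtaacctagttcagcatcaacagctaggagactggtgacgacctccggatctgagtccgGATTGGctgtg
H2-K1 shows enhancer A followed by an ISRE, and H2-D1 holds the same pair. B2m shows an ISRE and a Y box. In the searched promoters enhancer A occurs in 0.353%, the class I ISRE in 0.505% and the general ISRE in 10.6%. No X box in the letters searched was found in H2-K1, H2-D1 or B2m.

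Among 13 transcription factors of MHC promoters, 6 fell, 1 rose and 6 did not pass, with a median of -0.20. Over all tested genes 23.9% were called lower and 26.1% higher. Nlrc5, the class I counterpart of Ciita, fell by 1.49 (SE 0.29, adjusted p = 0.000762 in edgeR's test), from 5.69 ± 2.36 to 2.01 ± 0.615 CPM (SD, n = 4 each). Control 4 had 2.54 CPM of Nlrc5 against 5.92 to 8.27 in the other controls, so the groups overlapped. The interferon regulatory factor Irf1 fell by 0.63 and Irf2 by 0.38. Groups of Irf1 overlapped too, with 8.52 CPM in control 4 and 8.54 in knockout 2. Creb1 fell by 0.66, and the NF-Y subunits Nfyc and Nfyb by 0.49 and 0.43. With library totals alone Nlrc5 stood at -0.49 (adjusted p = 0.108 in edgeR's test), and the other 5 turned positive.

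Of the RFX subunits that bind the X box, Rfxank had a log2 fold change of 0.36 (adjusted p = 0.0434 in edgeR's test), a call lost in 6 of 8 fits with 1 library left out (without any 1 control, or without knockout 1 or 2; adjusted p = 0.0522 to 0.119). Without knockout 1 its value was 0.22. Rfx5 was at 4.49 ± 0.698 CPM in controls against 3.87 ± 0.711 (SD, n = 4 each; adjusted p = 0.313).

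Interferon gamma, the main inducer of Ciita outside professional antigen-presenting cells, was not detected: Ifng had 0 counts in all 8 libraries. Of the 5 tested genes of its receptor and signalling, Ifngr1 rose by 0.48 and Jak1 by 0.26, Ifngr2 fell by 0.45 (adjusted p = 0.000433, 0.00367 and 0.000196 in edgeR's test), and 2 did not pass. Of all tested genes, 26.1% were called higher and 23.9% lower. With library totals alone Ifngr2 stood at 0.53.

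**Figure D4:**
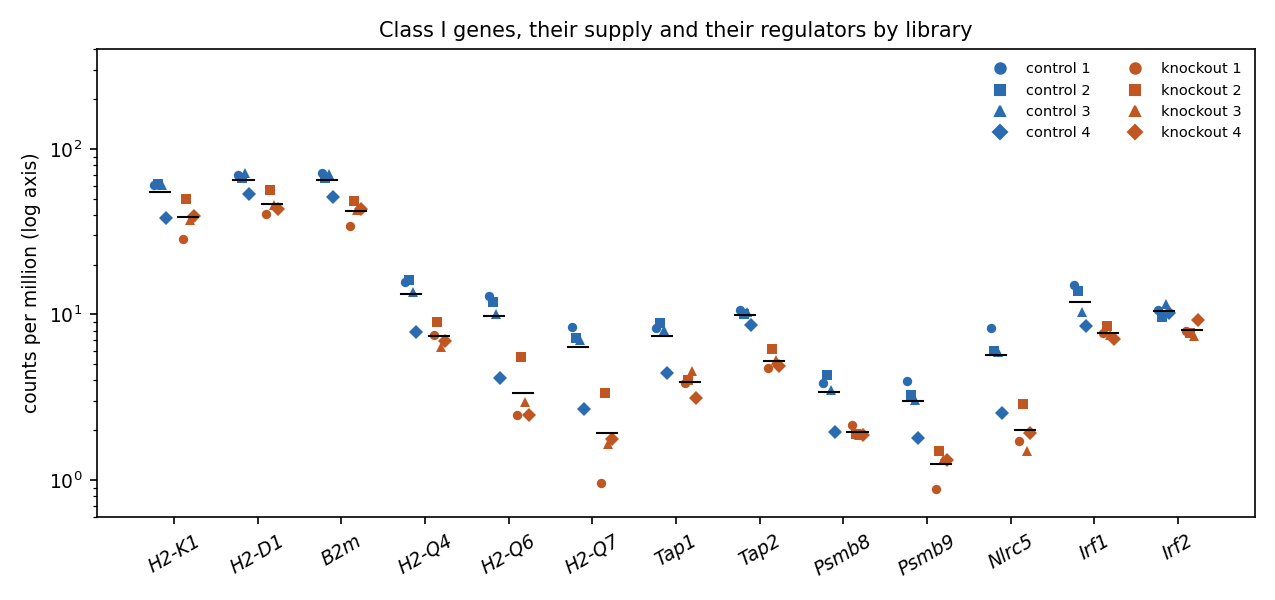
CPM per library of class I genes, their peptide supply and their regulators (x axis), on a log axis (blue, control; orange, knockout; marker shape, replicate; black line, group mean; n = 4 per group). Control 4 lies below the other controls for every gene shown except Irf2. Examples are H2-K1 (38.3 CPM against 60.2 to 61.7) and Nlrc5 (2.54 CPM against 5.92 to 8.27).

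Outside the set, the genes whose log2 CPM followed Cd74 most closely over the 8 libraries, among 7998 genes ranked, were Hmcn2, Spryd7, Apln, Fgd5 and Syngr2 (Pearson r 0.993 to 0.990). With the group means removed their r was 0.920 to 0.938. The other class II chains reached 0.989 (H2-Aa), 0.992 (H2-Ab1) and 0.992 (H2-Eb1), and B2m 0.949. For B2m the closest outside the set were Nt5c3b, Tbc1d2b, Nos3, Nfatc1 and Pcdh19 (r 0.987 to 0.969), and within it H2-Aa had 0.977, H2-D1 0.976, H2-Ab1 0.975, Cd74 0.949, H2-K1 0.945 and H2-Eb1 0.943. These values describe 8 libraries that share the difference between genotypes and the low values of knockout 1.

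The members lie at several places in the genome (GRCm38). The class II chains and H2-DM genes lie within the H2 complex on chromosome 17, with H2-DMa at 34119541 to 34139101, H2-DMb1 at 34153072 to 34160230, H2-Ab1 at 34257689 to 34269419, H2-Aa at 34282744 to 34287823 and H2-Eb1 at 34305867 to 34316674. H2-K1, at 33996017 to 34000347, and H2-D1, at 35262730 to 35267499, flank them. Cd74 (chromosome 18, 60803848 to 60812652), Ciita (chromosome 16, 10480059 to 10528418) and B2m (chromosome 2, 122147686 to 122153083) lie elsewhere. Cd74 and Ciita, outside the complex, fell, as did H2-Aa, H2-Ab1, H2-Eb1 and H2-DMa inside it, while H2-DMb1 did not pass. The fold changes of H2-K1 and H2-D1, on either side of those genes, were smaller than theirs.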

How the data were processed

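Raw counts per gene, whole numbers, and values normalized to a signal per library were deposited by the authors for each of 8 libraries. The authors' deposited table also gives p-values, log2 fold changes and a score, the test statistic. The normalized signal deposited by the authors was used for no result. The submitters' processing notes name the build mm10 and, without roles, DESeq2 1.14.1 and R 3.3.2, featureCounts, bedtools, SAMtools 1.3.1 and Bowtie2. Per the labels' protocols, paired ends of TruSeq libraries were read on a MiSeq. No source used here says whether counting used strand.

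Counts were tested with edgeR 4.0.16 in R 4.3.3 (TMM factors, filterByExpr with a minimum count of 10, quasi-likelihood F test, two-sided, Benjamini-Hochberg adjustment at 0.05 over 17891 genes). TMM gave controls factors of 0.689 to 0.733 and knockouts 1.03 to 1.61. The biological coefficient of variation was 11.3%. SE was taken as the log2 fold change divided by the square root of F. Ratios used counts plus 0.5. The fit was tested on simulated data that gave all libraries the control composition and all genes the same dispersion. It therefore did not test the scaling between genotypes. Alternatives were DESeq2 1.42.0, RLE factors, library totals, no filter, nuclear genes alone, a replicate block, each library left out in turn and, for ratios, 5 added counts.

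Groups follow the labels. Replicates are separate mice per the series text, and pairs differed beyond counting noise (2.57 to 144 chi-square per degree of freedom), and none was taken as a duplicate. Library totals of 21108165 to 27403415 set the precision, and without molecular identifiers reads do not count independent molecules. Members, lists and motifs were chosen with earlier results of these data known. Named are the members, Tefm, called genes of the pathway lists and those at a list's end, and the 5 genes most like Cd74 or B2m by Pearson r at a mean of at least 5 CPM. Named beyond this rule after their values were seen were Ctss, Rfx5, Ifng, the markers and the genes that share reads with members. Marker lists of fibroblasts (2 of 5 higher, 3 not passing) and cardiomyocytes (4 of 6 lower, 1 higher) were also read. The shares over all tested genes were 23.9% lower and 26.1% higher. Of the lists first drawn up, 2 genes are not reported here. Positions, lengths and overlaps are from GENCODE M21 (GRCm38) and promoters from RefSeq (GRCm38.p6). Figures were drawn with matplotlib 3.10.9.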

Additional observations from a re-analysis of the deposited data

Results flagged for a closer look

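Of 24 groups of 4 libraries examined for a library far from the rest, 4 held one by Dixon's test, which flags about 1 in 20 groups by chance. For Cd74, knockout 1 had 4.01 CPM against 8.02 to 8.71 in the other knockouts. The log2 ratio of Cd74 to B2m was -3.09 in knockout 1 and -2.47 to -2.40 in the others, so that knockout 1 lay farther from the controls than the rest. For H2-K1, control 4 had 38.3 CPM against 60.2 to 61.7. The log2 ratio of H2-Ab1 to H2-K1 was -2.25 in control 1 and -2.54 to -2.49 in the other controls. Without knockout 1 the difference between genotypes in the Cd74 to B2m log2 ratio was -1.34, against -1.50 with it. Without control 1 that of H2-Ab1 to H2-K1 was -1.63, against -1.69 with it.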

How the results depend on the processing

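The number of called class II members (5) and all member directions held under DESeq2, RLE factors, no filter, nuclear genes alone and the replicate block. Library totals alone called 480 genes lower and 14066 higher, 0 class I members lower and 3 higher. Log2 fold changes that turned positive on that scale were H2-DMb1 0.14, H2-K1 0.52, H2-D1 0.53, B2m 0.40, Lgmn 0.59, Tap1 0.068, Tap2 0.093, Tapbp 0.57, Psmb8 0.18, Psme1 0.069, Erap1 0.27, Calr 0.67, H2-T23 0.63, H2-T22 0.37, H2-T24 0.52, H2-Q4 0.15, Fcgrt 0.60, Rfx5 0.81, Nfyb 0.56, Nfyc 0.48, Creb1 0.33, Irf1 0.36, Irf2 0.62, Ifngr2 0.53, Csf1r 0.78, C1qa 0.40, C1qb 0.44, C1qc 0.61 and Lyz2 0.37. With the replicate block the ratios of Cd74 to B2m (-1.50) and H2-Ab1 to H2-K1 (-1.69) kept their size, but p was 0.125, the smallest that 16 sign changes allow. Same-numbered libraries did not deviate together (r = -0.01 to 0.05), which cannot settle whether the numbers pair mice. The block changed no other call. Ctss, not called, ranged from -0.12 to 0.16 with 1 library left out. The H2-DM genes, at 3 to 29 counts per library, are limited by depth.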
